A study of Homo sapiens with 15 samples.

Results

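L540 and its subline L540Cy were set against the 4 other Hodgkin lines of the series, L428, L1236, KM-H2 and HDLM2. They are 2 of 15 arrays, and 2 of the 10 arrays that the labels assign to classical Hodgkin lymphoma. Arrays were chosen by their titles, L540 and L540Cy were averaged as 1 line of origin, and the comparison group was the mean of 4 lines with 2 arrays each (8 arrays). The labels name no treatment and no altered gene for any of the 10. The series design text describes biological duplicates for the comparison lines and single hybridisations for L540 and L540Cy, and names no more of how the cultures were separated. The other 5 arrays (Reh with 2, Namalwa with 2 and SU-DHL-4 with 1), from leukaemia and non-Hodgkin lymphoma lines and called non-Hodgkin here, serve only as a reference for levels.

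Hodgkin and Reed-Sternberg cells are the tumour cells of classical Hodgkin lymphoma. They mostly descend from B cells that have lost their B cell programme, and they depend on cytokine, NF-kB and JAK-STAT signalling and on contact with surrounding cells. L540 and HDLM2 are known from background as T cell derived, and L428, L1236 and KM-H2 as B cell derived. That L540Cy is a subline of L540 is also background and is not stated in the labels.

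The promoters of the 4 genes that mark the pair, ALKAL2, G0S2, NKG7 and GZMB, are shown because all 4 genes were high on both arrays while their promoters differ in base composition. Each runs from 250 bases before to 50 bases after the RefSeq gene start (GRCh38.p14), on the strand of the gene, 5′ to 3′, with every CG pair in capitals. ALKAL2 (chr2:288042-288341, minus strand) encodes a secreted ligand of the receptor tyrosine kinases ALK and LTK. G0S2 (chr1:209675162-209675461, plus strand) encodes an inhibitor of the triglyceride lipase ATGL. NKG7 (chr19:51372605-51372904, minus strand) encodes a membrane protein of cytotoxic granules. GZMB (chr14:24634141-24634440, minus strand) encodes granzyme B, the granule protease of cytotoxic lymphocytes.
ALKAL2: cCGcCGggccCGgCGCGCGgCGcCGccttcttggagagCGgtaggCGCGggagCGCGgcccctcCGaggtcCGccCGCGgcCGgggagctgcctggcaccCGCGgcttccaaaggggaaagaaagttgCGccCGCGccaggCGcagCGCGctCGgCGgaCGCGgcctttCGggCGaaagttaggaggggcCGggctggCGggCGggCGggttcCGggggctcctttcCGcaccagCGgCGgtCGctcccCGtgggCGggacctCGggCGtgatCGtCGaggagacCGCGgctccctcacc
G0S2: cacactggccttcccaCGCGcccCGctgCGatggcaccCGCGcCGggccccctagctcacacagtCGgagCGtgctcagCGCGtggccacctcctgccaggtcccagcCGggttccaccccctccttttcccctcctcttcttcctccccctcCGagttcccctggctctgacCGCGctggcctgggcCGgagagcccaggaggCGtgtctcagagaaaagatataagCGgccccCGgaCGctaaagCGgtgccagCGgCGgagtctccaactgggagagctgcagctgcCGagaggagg
NKG7: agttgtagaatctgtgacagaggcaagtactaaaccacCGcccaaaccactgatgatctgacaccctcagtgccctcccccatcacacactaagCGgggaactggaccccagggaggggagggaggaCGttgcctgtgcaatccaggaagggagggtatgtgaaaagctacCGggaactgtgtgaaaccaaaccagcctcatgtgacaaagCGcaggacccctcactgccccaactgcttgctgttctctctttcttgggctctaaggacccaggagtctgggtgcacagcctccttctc
GZMB: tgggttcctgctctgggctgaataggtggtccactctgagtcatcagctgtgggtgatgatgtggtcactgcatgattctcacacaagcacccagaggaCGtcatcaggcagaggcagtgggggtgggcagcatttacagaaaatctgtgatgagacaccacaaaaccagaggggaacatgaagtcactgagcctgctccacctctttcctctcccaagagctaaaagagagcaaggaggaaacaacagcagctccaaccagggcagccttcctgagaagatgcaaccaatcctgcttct
The ALKAL2 window holds 49 CG pairs and 77.7% G and C. Of the 15382 promoters matched to measured genes, 1.8% hold more CG pairs. G0S2 holds 24 pairs, near the median of 22 over all promoters, NKG7 holds 5 and GZMB holds 1.

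The windows were searched on both strands for 5 motifs. They were the TATA box as TATAAA, the AP-1 motif as TGANTCA and the RUNX motif as TGTGGT. The STAT motif was searched as TTCNNNGAA and the GATA motif as AGATAA. The matches found did not overlap one another. ALKAL2, G0S2 and NKG7 had no match. The GZMB promoter had 1 match to the AP-1 letters, TGAGTCA, starting 214 bases before the gene start, and 2 to the RUNX letters, starting 190 and 93 bases before it, the latter as ACCACA. These matches are in capitals here.
GZMB: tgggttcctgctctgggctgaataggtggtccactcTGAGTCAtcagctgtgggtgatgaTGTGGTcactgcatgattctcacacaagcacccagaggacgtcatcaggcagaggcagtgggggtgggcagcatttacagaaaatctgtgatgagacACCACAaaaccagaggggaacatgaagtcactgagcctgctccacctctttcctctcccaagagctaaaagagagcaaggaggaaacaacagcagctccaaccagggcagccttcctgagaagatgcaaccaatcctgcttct
AP-1 letters occur in 5.8% and RUNX letters in 10.8% of all promoters. Among the genes defined below as apart, promoters of 372 higher genes held the 5 motifs in 7.5%, 4.8%, 8.9%, 7.5% and 5.6% of cases, in the order given. All promoters held them in 8.8%, 5.8%, 10.8%, 6.9% and 7.5%. A match describes the letters and does not show a bound factor.

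Values are log2 signals made by the authors with RMA, so a difference of 1 log2 is a doubling, and differences near background are compressed. The arrays' medians ran from 5.83 to 5.90. Between duplicate arrays the SD was 0.17 to 0.26 log2 in the 4 comparison lines, and between L540 and L540Cy it was 0.38 log2. The Hodgkin marker TNFRSF8, which encodes CD30, was at 12.15 in L540 and 11.41 in L540Cy against 9.24 to 12.77 (median 10.49) on the 8 other Hodgkin arrays, so both lines carried it. In a bulk sample, less RNA per cell and fewer cells with the RNA cannot be told apart, and the number of arrays limits the precision.

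L540 and L540Cy also differed from each other. ALB (serum albumin) was at 12.24 in L540 and 3.67 in L540Cy, against 3.28 to 3.58 on the other Hodgkin arrays. AFP (alpha-fetoprotein) was at 10.59 in L540 and 4.95 in L540Cy, against 4.70 to 5.21. PTPN14, a tyrosine phosphatase, was the reverse, at 5.11 in L540 and 10.12 in L540Cy, against 4.75 to 5.22. These 3 genes, named after their values were seen, were each high on 1 array and are not counted as shared.

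The first question was how many genes the pair shares against the other Hodgkin lines. Of 19735 genes, 2250 were higher (11.4%) and 2973 lower (15.1%) in the pair, by limma with Benjamini-Hochberg adjustment at 0.05 on the 10 arrays. A gene was termed apart when it also differed by at least 1 log2 and both L540 and L540Cy lay beyond all 8 other Hodgkin arrays. This held for 457 higher genes (2.32%) and 685 lower genes (3.47%). L540 and L540Cy were within 1 log2 of each other in 379 of the 457 and 625 of the 685. Apart genes with a difference of 3 log2 or more numbered 79 higher and 150 lower. The median difference over all genes was 0.03 log2. With each array centred on its own median that difference was 0.15 log2, and 3465 genes were higher and 2472 lower, so the balance of directions depends on the scaling.

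These tests measure the spread between arrays of a line, not between lines. They use 1 spread per gene for all 5 lines of origin. Between L540 and L540Cy the SD was 0.38 log2, above the 0.17 to 0.26 log2 of the duplicates. Where L540 and L540Cy lie far from each other, as for GZMB, the SE and p therefore understate the spread of the pair. With the line as the replicate, 1 line of origin against 4, the spread comes from the 4 comparison lines alone, and the pair is assumed to vary like them. In that fit 29 genes were higher (0.147%) and 6 lower (0.0304%) by limma at an adjusted p of 0.05. At an unadjusted p under 0.05 that test had 1136 genes. Of those called, 26 higher and 6 lower genes were apart, and the other 3 were ALB and AFP, high in L540 alone (12.24 and 10.59, against 3.67 and 4.95 in L540Cy), and PTPN14, high in L540Cy alone (10.12, against 5.11 in L540). For all other genes below, the test describes these arrays and these 4 lines. Counts of list members below are to be read beside the 11.4% higher and 15.1% lower of all genes.

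**Figure D1:**
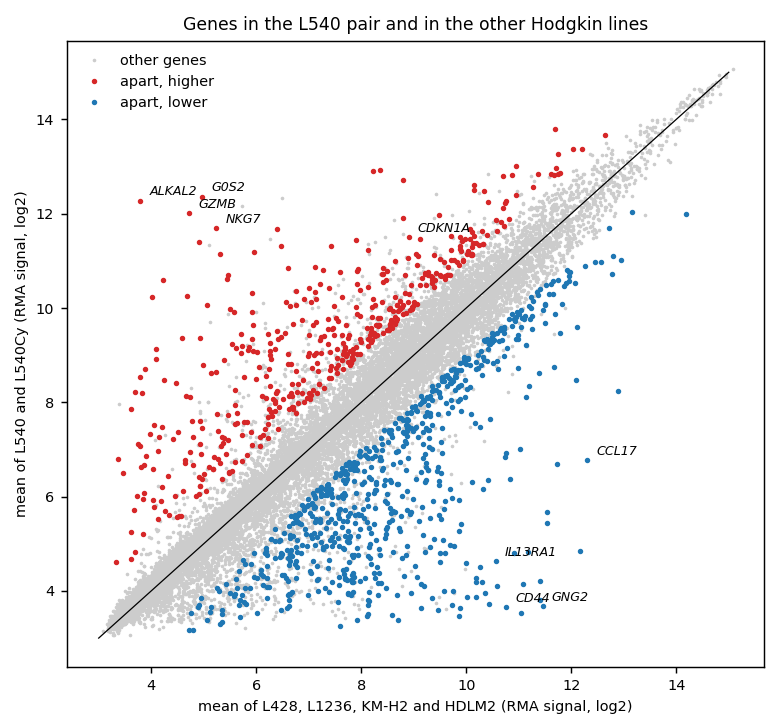
Each point is 1 of 19735 genes, with the mean log2 signal of L428, L1236, KM-H2 and HDLM2 on the x axis and that of L540 and L540Cy on the y axis. Red points are the 457 apart and higher genes, blue points the 685 apart and lower genes, and the line marks equal levels.

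The largest differences separated levels near background from high ones. ALKAL2 was at 12.43 in L540 and 12.13 in L540Cy, against 3.57 to 3.93 (median 3.81) on the 8 other Hodgkin arrays. Its difference was 8.49 ± 0.13 log2 (SE, 2 arrays against 8, limma adjusted p = 9.68e-09, 0.0043 with the line as the replicate). The non-Hodgkin arrays held 3.63 to 8.71, so ALKAL2 was higher in the pair than on all 13 other arrays. G0S2 was at 11.86 and 12.86 against 4.86 to 5.38 (median 4.93), a difference of 7.39 ± 0.23 log2 (SE, limma adjusted p = 9.35e-08, 0.00867 by line). GZMB was at 10.15 in L540 and 13.86 in L540Cy against 4.28 to 5.30 (median 4.67), 7.28 ± 0.72 log2 higher (SE, limma adjusted p = 9.51e-05, 0.0228 by line). Of the 4 marker genes GZMB had the widest gap between L540 and L540Cy, so its SE, pooled over the lines, understates the spread of the pair. NKG7 was at 11.24 and 12.15 against 4.5 to 6.35 (median 5.01), 6.45 ± 0.20 log2 higher (SE, limma adjusted p = 9.59e-08). With the line as the replicate NKG7 had an adjusted p of 0.142, and HDLM2 was its highest comparison line with a mean of 6.32.

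**Figure D2:**
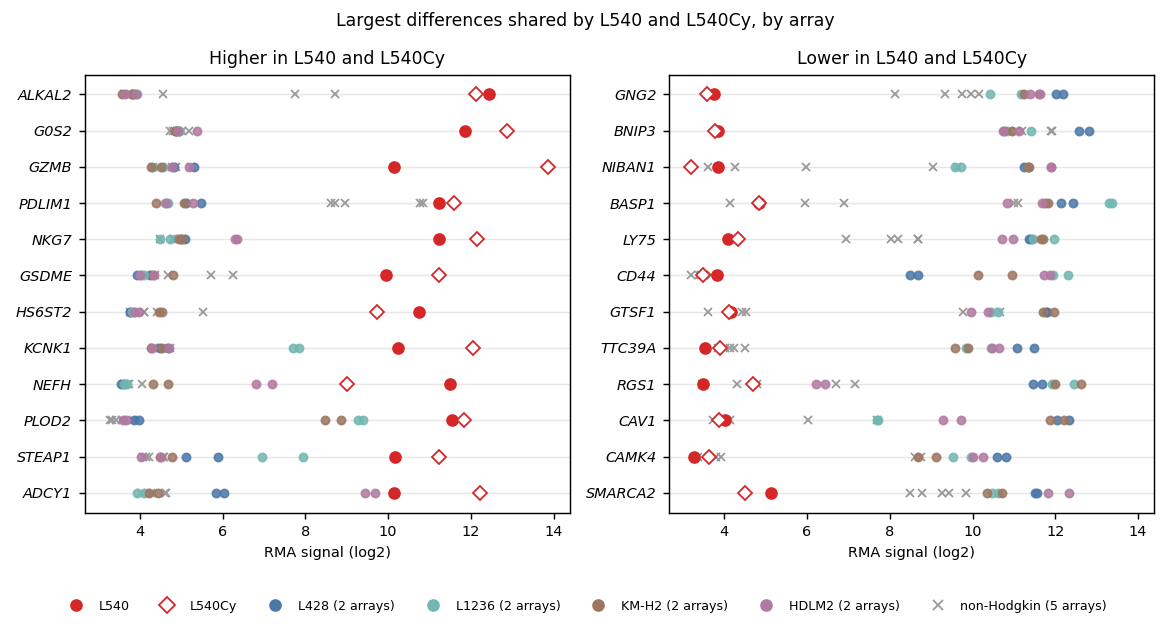
Log2 RMA signals (x axis) of the 12 largest differences in each direction among apart genes, 1 row per gene and 1 symbol per array. Red circles (L540) and open red diamonds (L540Cy) lie beyond every other Hodgkin array in each row, and grey crosses are the 5 non-Hodgkin arrays.

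Genes called with the line as the replicate span several functions. PDLIM1, an actin-associated LIM protein, was at 11.23 and 11.59 against 4.40 to 5.49, though the non-Hodgkin arrays held 8.62 to 10.84. GSDME, a pore-forming gasdermin that caspase 3 cleaves, was at 9.96 and 11.23 against 3.93 to 4.8. HS6ST2, which adds sulphate to heparan sulphate chains, was at 10.75 and 9.72 against 3.76 to 4.53. Their differences were 6.5, 6.37 and 6.22 log2. SOX17, a transcription factor of endoderm and endothelium, was at 7.02 in L540 and 9.39 in L540Cy against 3.53 to 3.95. CCNA1, the cyclin A of the germ line, was at 7.86 and 9.56 against 3.66 to 4.34. PROK2, a secreted prokineticin, was at 8.18 and 8.26 against 3.52 to 3.91. All 3 were thus raised on both arrays and near background in the 4 lines. LPL (lipoprotein lipase) and ACSS2 (an acetyl-CoA synthetase) were 2.80 and 3.33 log2 higher and were called in the same way. SOX17, CCNA1, PROK2, LPL and ACSS2 were named after their values were seen.

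Of the 6 genes called lower with the line as the replicate, GNG2 and LY75 had the largest differences. GNG2, a G protein gamma subunit, was at 3.76 and 3.59 against 10.41 to 12.19 (median 11.50), a difference of -7.79 ± 0.20 log2 (SE, limma adjusted p = 3.21e-08, 0.0475 by line). LY75, the endocytic receptor DEC-205, was at 4.10 and 4.33 against 10.72 to 11.97 (median 11.44), a difference of -7.19 ± 0.15 log2 (SE, limma adjusted p = 1.83e-08, 0.0336 by line). Named after their values were seen, the zinc transporter SLC39A4, the mitochondrial protein LACTB, the zinc finger gene ZNF354A and the glycan-branching enzyme GCNT2 had -4.78, -3.81, -2.79 and -2.41 log2.

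Other genes among the 12 largest negative differences were low on both arrays. NIBAN1 had a difference of -7.52 log2, BASP1 -7.33, GTSF1 -6.94, TTC39A -6.71, CAV1 -6.41, CAMK4 -6.40 and SMARCA2 -6.34. CAV1 encodes caveolin 1, CAMK4 a calcium-dependent kinase of T cells, and SMARCA2 an ATPase of SWI/SNF chromatin remodelling complexes. CAV1 was at 4.02 and 3.88 against 7.69 to 12.32 (median 10.80), with L1236 the lowest comparison line, and SMARCA2 at 5.14 and 4.51 against 10.36 to 12.33 (median 11.10). Among the higher genes, STEAP1, a metalloreductase, was at 10.16 and 11.23 against 4.02 to 7.94 (median 4.96), and the neurofilament gene NEFH at 11.49 and 9.01 against 3.55 to 7.19 (median 4.01). Where several probe sets read a gene, the brightest one was used. Averaging them instead, GNG2 had -3.42, BASP1 -3.71, TTC39A -2.53 and SMARCA2 -3.62 log2. In the same way KCNK1, a potassium channel, had 3.18 in place of 5.83 log2, and ADCY1, an adenylate cyclase, 2.26 in place of 5.22 log2.

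Cytotoxic granule genes changed in both directions. Of 20 granule genes, 6 were higher, 3 lower and 11 did not pass, with a median difference of 0.08 log2 against 0.03 log2 for all genes, of which 11.4% were higher and 15.1% lower. The list's median signal was 6.59 in L540 and 7.19 in L540Cy, against 5.13 to 6.12 on the 8 other Hodgkin arrays. The list includes GZMB and NKG7, which mark the pair, so its higher and apart counts and this gap are partly built in. GZMB, NKG7 and GZMA were the 3 apart members. GZMA, another granule protease, was at 4.48 in L540 and 7.39 in L540Cy against 3.73 to 4.37, so it was raised mainly in L540Cy. Its difference was 1.90 log2 (limma adjusted p = 0.036, 0.0532 with the replicate number as a block), 3.35 without L540 and 0.44 without L540Cy. Its call ended without L540Cy or without any 1 of the 8 other arrays (adjusted p = 0.0573 to 0.111). PRF1 (perforin), the pore-forming partner of granzymes, was at 6.64 and 6.36, against line means of 6.07 to 6.30 in L428, L1236 and KM-H2 and 12.39 in HDLM2. PRF1 had a difference of -1.25 log2, and 0.29 log2 without HDLM2 (limma adjusted p = 0.161). GNLY, GZMK, GZMM and GZMH, named after their values were seen, did not pass and lay at 4.41 to 5.25 on both arrays. Of 19 NK cell receptor genes KIR2DL3 (0.44 log2) and NCR2 (0.34 log2) were higher, KLRF1 (-0.69 log2) was lower and 0 were apart. The call of KIR2DL3 ended without L540Cy (limma adjusted p = 0.3), that of NCR2 with the mean of its probe sets (0.503) and that of KLRF1 without L540 (0.0947).

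Genes of the T cell receptor apparatus went both ways. Of 27, 7 were higher, 5 lower and 15 did not pass (median 0.08 log2). CD4, the coreceptor of helper T cells, was at 10.51 and 10.53 in the pair and at a mean of 10.10 in KM-H2, while the other 3 lines held 6.18 to 6.31. Its difference was 3.30 ± 0.13 log2 (SE, limma adjusted p = 3.67e-07), or 1.72 with the mean of its probe sets. CD247, the zeta chain of the receptor, was at 10.21 and 10.50 and at a mean of 10.19 in HDLM2, against 5.44 to 5.71 in the B cell derived lines. CD247 was thus near the level of the other T cell derived line, but CD2 was not. CD2 had a mean of 10.75 in HDLM2, and against HDLM2 alone its difference was -4.95 log2 (limma adjusted p = 0.000196). In that comparison 5 of the 27 genes were higher in the pair and 5 lower. CD3E and CD3G did not pass, at 4.65 to 5.55 in the pair. CD3D was at 5.94 on both arrays and was highest in KM-H2, a B cell derived line. CD247, CD2 and these CD3 genes were named after their values were seen.

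THEMIS, a regulator of thymocyte selection, was at 3.62 and 3.65, near the mean of 3.89 in L1236, against 9.67 to 12.35 in the other 3 lines. The kinase FYN was at 4.5 and 4.05 against 5.72 to 9.29 (median 7.87), a difference of -3.43 log2 (-1.12 with the mean of its probe sets). ICOS, a costimulatory receptor, was at 6.28 in L540 and 4.91 in L540Cy against 4.30 to 4.64, and had 0.37 log2 without L540 (limma adjusted p = 0.163) and 1.75 without L540Cy. Its call also ended without L428 or KM-H2, or without replicate 2 of either (adjusted p = 0.05 to 0.0538).

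Transcription factors of T lineage cells were more often lower than higher, with 8 lower, 5 higher and 5 of 18 not passing (median -0.36 log2). All genes had 15.1% lower and 11.4% higher. LEF1, which acts with beta-catenin, was at 4.02 and 3.67 against 6.95 to 11.33 (median 9.36, difference -5.50 log2, or -2.37 with the mean of its probe sets). RORA, an orphan nuclear receptor, was at 3.70 and 3.83 against 5.48 to 10.90 (median 7.08, difference -3.80 log2, or -1.37 with that mean). GATA3, the helper T cell regulator, was at 10.23 and 8.97, below the 11.05 to 12.77 (median 12.10) of the other arrays (-2.51 log2). PRDM1 (Blimp-1), a transcriptional repressor that drives terminal B cell differentiation, was the reverse, at 11.01 and 11.45 against 7.40 to 9.39 (median 8.08). Its difference was 3.10 ± 0.25 log2 (SE, limma adjusted p = 2.98e-05), or 1.94 with the mean of its probe sets. Both arrays exceeded all other Hodgkin and non-Hodgkin arrays for PRDM1.

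Of 25 B cell identity genes 9 were lower and 1 was higher, beside 15.1% and 11.4% of all genes. The higher one was BLK, a kinase of B cell receptor signalling, at 8.77 and 9.23 against 5.01 to 7.96 (median 5.86, difference 2.74 log2, or 1.42 with the mean of its probe sets). SPIB, an ETS factor, was at 5.04 and 5.90, beside L1236 at 5.37 and below the 9.56 to 10.36 of the other 3 lines. BCL11A was at 4.31 and 4.53, beside HDLM2 at 4.78 and below the 9.60 to 11.08 of the B cell derived lines.

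Chemokines and TNF family ligands had lower members and no higher ones. Of 23 chemokines 0 were higher and 8 lower, and of 17 chemokine receptors 0 were higher and 4 lower. Among all genes 11.4% were higher and 15.1% lower. CCL17, the chemokine TARC that draws CCR4-bearing T cells, was at 6.2 in L540 and 7.34 in L540Cy against 8.57 to 14.55 (median 12.81). Its difference was -5.54 ± 0.29 log2 (SE, limma adjusted p = 2.13e-06), and HDLM2 was its highest line with a mean of 14.51. CCR4 itself was at 5.41 and 5.38, beside KM-H2 at 5.24 and below the 7.15 to 8.51 of the other 3 lines. CXCL10, a ligand of CXCR3, was at 5.03 and 4.77, beside HDLM2 at 4.95, while L1236 and KM-H2 held 12.01 and 12.18. CXCL11, which binds the same receptor, had -1.82 log2, but -0.55 without KM-H2 (limma adjusted p = 0.141). CX3CL1, a membrane-bound chemokine, was at 4.82 and 4.83, as in L1236 at 4.66, against 10.01 to 10.60 in the other 3 lines. CXCL10 and CX3CL1 were named after their values were seen.

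Of 15 TNF family ligands 0 were higher and 5 lower (median -0.44 log2), beside 11.4% and 15.1% of all genes. Against HDLM2 alone 1 was higher and 3 lower (median -0.04 log2). LTA (lymphotoxin alpha) was apart at 9.20 and 8.26 against 9.46 to 12.41 (median 10.93, difference -2.26 log2). Among 16 helper T cell cytokines 3 were higher and 5 lower, beside the same shares of all genes. IL26, an IL-10 family cytokine, was at 10.96 and 11.69, and IL26 was also high in HDLM2 at a mean of 10.25, while the B cell derived lines held 3.31 to 3.49. IL21 was at 7.60 and 7.04 and at 7.29 in KM-H2, against 4.31 to 4.43 in the other 3 lines.

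Interleukin receptors changed in both directions, with 10 of 37 higher and 7 lower, beside 11.4% and 15.1% of all genes. IL7R, the receptor for interleukin 7, was at 9.31 and 9.39 against 5.24 to 6.57 (median 6.01), a difference of 3.43 ± 0.21 log2 (SE, limma adjusted p = 5.15e-06). OSMR, the oncostatin M receptor, was at 6.85 and 6.04 against 4.17 to 4.42 and was also called with the line as the replicate (2.14 log2, 1.40 with the mean of its probe sets). IL10RA was at 12.47 and 12.01 against 8.81 to 11.99 (median 10.54, difference 1.83 log2). IL13RA1, a receptor chain for interleukin 13, a growth factor of Hodgkin cells, was at 4.49 and 4.76 against 9.13 to 11.75 (median 10.70). Its difference was -5.94 ± 0.18 log2 (SE, limma adjusted p = 9.08e-08), and the non-Hodgkin arrays held 3.95 to 4.59. IL1R2, a decoy receptor for interleukin 1, was at 9.91 and 11.54 against 11.88 to 13.70 (median 12.82, difference -2.05 log2, -1.24 without L540).

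In the TNF receptor family 3 of 23 were higher and 4 lower, near the 11.4% and 15.1% of all genes. TNFRSF1B (TNF receptor 2) was at 8.33 and 8.79 against 5.58 to 7.83 (median 5.79) and TNFRSF10B (a TRAIL receptor) at 10.88 and 11.74 against 9.15 to 10.77 (median 9.71), higher by 2.37 and 1.43 log2. CD40, at 7.81 and 7.68 against 9.22 to 11.06 (median 9.94), and TNFRSF14, at 7.57 and 7.47 against 8.22 to 9.40 (median 8.92), were apart and lower by limma (-2.34 and -1.34 log2, CD40 -4.53 with its most variable probe set). TNFRSF8 was 0.97 log2 higher (limma adjusted p = 0.0142). Its call ended without L540 (0.59 log2) or KM-H2 (0.57 log2), and it had 1.60 log2 without HDLM2, its highest line.

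Among 19 JAK-STAT genes 7 were higher and 3 lower (median 0.22 log2), and PTPN2, a phosphatase that acts on JAK1 and STAT proteins, was apart (1.07 log2). The NF-kB list had 4 higher and 4 lower of 23, and the AP-1 list 2 and 3 of 13. The shares over all genes were 11.4% and 15.1%. FOSL2 (1.63 log2) was apart and higher, and MAFF (-2.89 log2) apart and lower. Of 34 interferon response genes 10 were higher and 8 lower, with a median of -0.15 log2. L540 and L540Cy differed here, as the list's median signal was 8.88 in L540 and 7.17 in L540Cy, against 7.98 to 9.29 on the other Hodgkin arrays. Against HDLM2 alone 4 of these genes were higher and 9 lower (median -0.60 log2). IFITM2 was at 12.18 and 12.78 against 9.43 to 11.64 (median 10.12, difference 2.15 log2) and IFITM1 at 12.81 and 12.83 against 10.35 to 12.40 (median 11.92, difference 1.15 log2). The call of IFITM1 ended with all 15 arrays in the fit (limma adjusted p = 0.142). These related membrane proteins have similar sequences, so their probe sets may share signal. With the mean of their probe sets PTPN2 had 0.64, FOSL2 2.70 and MAFF -1.60 log2.

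Receptor tyrosine kinases and their ligands had 7 higher and 6 lower of 34, beside 11.4% and 15.1% of all genes. Of the higher genes 4 were apart. Besides ALKAL2 these were MDK, IGF1R and FGFR1. ALKAL2 marks the pair, so the list's higher and apart counts are partly built in. MDK, the secreted growth factor midkine, was at 9.41 and 8.73 against 5.66 to 7.02 (median 5.92, difference 3.05 log2, limma adjusted p = 1.55e-05). IGF1R, the insulin-like growth factor receptor, was at 9.35 and 9.44 against 4.44 to 8.99 (median 7.59). Its difference was 2.10 log2, or 1.31 without HDLM2, its lowest line, and 1.32 with the mean of its probe sets. FGFR1 was at 9.52 and 9.36 against 7.21 to 9.21 (median 7.84, difference 1.27 log2, or 0.76 with that mean). MERTK, a receptor for apoptotic cells, was apart and lower (-1.94 log2, or -0.85 with that mean).

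ROR2, a receptor for WNT5A, was at 8.04 and 6.63 against 3.82 to 4.11. The frizzled receptors FZD2 and FZD7 had -3.47 and -1.89 log2 (FZD2 -2.00 with the mean of its probe sets). The WNT list had 4 higher and 8 lower of 30. Feedback genes of the MAPK cascade had 5 higher and 5 lower of 21. For both lists the shares over all genes were 11.4% higher and 15.1% lower. SPRED1, an inhibitor of RAS signalling, was at 3.05 and 3.47 against 4.99 to 9.38 (median 8.05, difference -4.34 log2, or -2.85 with the mean of its probe sets). EGR1, an immediate early factor, was at 5.37 and 6.05 against 6.39 to 10.90 (median 8.98, difference -3.16 log2, or -1.81 with that mean).

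Regulators of G protein signalling (RGS proteins), which speed up GTP hydrolysis by G alpha subunits, were mostly lower where they passed the test. Of the 16 listed here 0 were higher, 6 lower and 4 apart, with a median difference of -0.31 log2. Among all genes 11.4% were higher, 15.1% lower and 3.47% apart and lower. Over all 22 measured RGS symbols 1 was higher. RGS1 was at 3.49 and 4.70 against 6.21 to 12.62 (median 11.79), a difference of -6.50 ± 0.30 log2 (SE, limma adjusted p = 8.6e-07), or -3.78 with the mean of its probe sets. RGS2 was at 4.35 and 4.01 against 6.53 to 12.02 (median 10.76), a difference of -6.01 ± 0.26 log2 (SE, limma adjusted p = 5.41e-07). HDLM2 was the lowest comparison line for both, with means of 6.33 and 7.0. RGS13 was at 3.46 and 3.33, close to HDLM2 at 3.85, against 8.23 to 11.18 in the B cell derived lines (-4.53 log2, or -2.24 with the mean of its probe sets). Its call ended when all 15 arrays shared the estimate of spread (limma adjusted p = 0.051). Against HDLM2 alone RGS1 had -2.23 log2 (limma adjusted p = 0.00281), RGS2 -2.82 log2 (0.0003) and RGS13 -0.46 log2 (0.482). RGS10, RGS14 and RGS19, named after their values were seen, did not pass and lay at 8.42 to 10.68 in the pair.

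**Figure D3:**
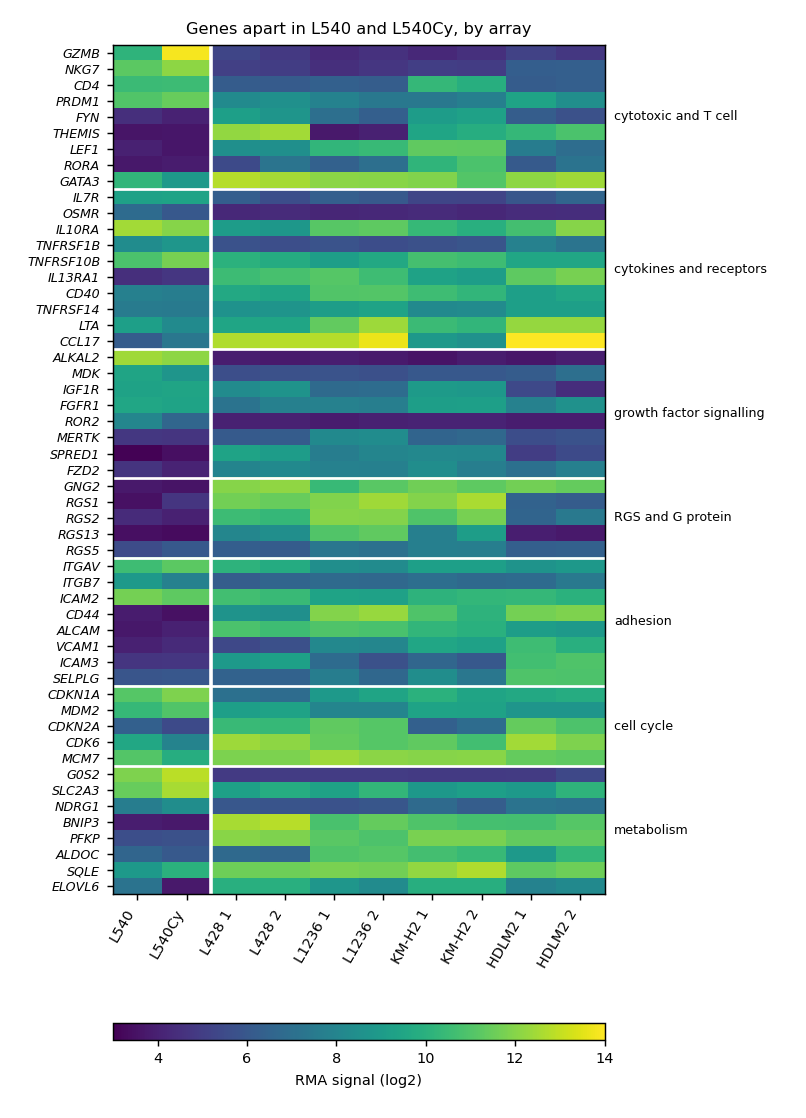
Log2 RMA signals of apart genes grouped by role (rows) on the 10 Hodgkin arrays (columns), on a colour scale from 3 (dark) to 14 (yellow). L540 and L540Cy stand left of the vertical white line, and RGS1, for one, is dark in both at 3.49 and 4.70.

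Adhesion molecules changed in both directions. Of 30 genes 7 were higher and 9 lower, with 3 and 6 of them apart. Over all genes the shares were 11.4% and 15.1%, with 2.32% and 3.47% apart. CD44, the hyaluronan receptor, was at 3.82 and 3.48 against 8.48 to 12.30 (median 11.34), a difference of -7.11 ± 0.21 log2 (SE, limma adjusted p = 6.8e-08). CD44 has 13 probe sets, whose mean gave -2.66 log2. ALCAM, the ligand of CD6, was at 3.70 and 4.03 against 8.91 to 10.96 (median 10.41, difference -6.32 log2, -3.88 with the mean of its probe sets). VCAM1 was at 4.03 and 4.30 against 5.39 to 10.58 (median 8.70, difference -4.15 log2). ICAM3 (-3.40 log2) and the P-selectin ligand SELPLG (-2.17 log2, -1.22 without HDLM2) were highest in HDLM2. ITGAV, the alpha V integrin, was at 10.57 and 11.24 against 8.30 to 10.10 (median 9.03, difference 1.84 log2), and ITGB7 and ICAM2 were higher by 1.59 and 1.41 log2 (ITGB7 1.04 without L540).

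In the matrix list 5 of 31 were higher and 6 lower, beside 11.4% and 15.1% of all genes. The laminin chain LAMB3 was at 9.26 and 11.12 against 5.52 to 9.03 (median 6.94, difference 3.05 log2), and LAMC1 was 1.62 log2 higher. The TGF-beta and BMP list had 5 higher and 6 lower of 25. TGFBR3, the coreceptor betaglycan, was at 4.91 and 5.05 against 8.68 to 11.57 (median 9.32, difference -4.71 log2, limma adjusted p = 4e-07). INHBE, an activin subunit, was at 4.17 and 6.02 against 7.48 to 11.56 (median 9.35, difference -4.30 log2), and the inhibitor ID3 at 5.0 and 4.28 against 5.70 to 8.55 (median 6.06, difference -2.01 log2). The type I receptor ACVR1, at 10.65 and 10.83 against 8.24 to 10.06 (median 9.18), was higher by 1.52 log2. The median signal of this list was 6.15 in L540 and 6.51 in L540Cy, against 6.71 to 8.27 on the other arrays.

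Cell cycle regulators differed at several steps. Of 16 cyclins, CDKs and inhibitors, 6 were higher, 6 lower and 4 did not pass, beside 11.4% higher and 15.1% lower among all genes. CDKN1A, the CDK inhibitor p21, was at 11.12 and 11.89 against 6.90 to 10.04 (median 9.44), a difference of 2.60 ± 0.24 log2 (SE, limma adjusted p = 5.54e-05). MDM2, the ubiquitin ligase of p53, was at 10.39 and 11.02 against 7.99 to 9.36 (median 8.97, difference 1.87 log2, limma adjusted p = 2.93e-05). CDKN2A, the locus of p16 and ARF, was at 6.36 and 5.48, beside KM-H2 at 6.64, against 10.43 to 11.19 in the other 3 lines (-3.93 log2, -2.53 with the mean of its probe sets). CDK6 was at 9.59 and 7.90 against 10.67 to 12.49 (median 11.63, difference -2.92 log2). Of 32 replication and mitosis genes 1 was higher and 7 lower (median -0.22 log2). The 1 higher gene, MKI67, had 0.75 log2, but -0.26 log2 with the mean of its probe sets (limma adjusted p = 0.587) and -1.01 log2 with its most variable probe set (0.0495), so its direction depends on the probe set. MCM7 (-1.40 log2), CCNB2 (-1.28) and GINS1 (-1.05) were apart. MCM7 had -0.80 and CCNB2 -0.69 log2 without L540Cy, and CCNB2 -0.34 log2 (limma adjusted p = 0.112) with the mean of its probe sets. In the apoptosis list 2 of 22 genes were higher and 6 lower. BCL2 was 1.0 log2 higher (0.52 without L428 and 0.43 with the mean of its probe sets).

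Glycolysis and hypoxia genes went both ways, with 6 of 26 higher and 5 lower (median 0.09 log2), beside 11.4% and 15.1% of all genes. BNIP3, a mitochondrial protein induced by hypoxia, was at 3.86 and 3.77 against 10.73 to 12.81 (median 11.03), a difference of -7.58 ± 0.17 log2 (SE, limma adjusted p = 2.26e-08). The non-Hodgkin arrays held 10.89 to 11.93, so BNIP3 was lower in the pair than on all 13 other arrays. PFKP, the platelet-type phosphofructokinase, was at 5.63 and 5.73 against 10.92 to 12.05 (median 11.57, difference -5.85 log2, -3.04 with the mean of its probe sets), and ALDOC had -3.14 log2. The glucose transporter SLC2A3, at 11.43 and 12.54 against 8.85 to 10.28 (median 9.30), and the hypoxia-induced gene NDRG1, at 7.67 and 8.39 against 5.76 to 7.18 (median 6.12), were higher by 2.50 and 1.68 log2.

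Amino acid transport and ATF4 targets had 8 higher and 3 lower of 23 (median 0.43 log2), and their median signal was 11.03 in L540 and 11.44 in L540Cy, against 9.63 to 10.80. SLC1A5, a glutamine transporter (1.01 log2), and the transcription factor CEBPB (1.5 log2) were apart and higher. SLC1A4, a serine and alanine transporter, was apart and lower (-3.69 log2, -2.21 with the mean of its probe sets). The call of SLC1A5 ended without L540 (limma adjusted p = 0.0555), and CEBPB had 0.92 log2 without L540Cy. Of 26 oxidative phosphorylation genes 8 were higher, 4 lower and 0 apart, beside 11.4% higher and 15.1% lower among all genes.

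Lipid droplet and fatty acid genes had 5 higher and 2 lower of 32, beside 11.4% and 15.1% of all genes. The list includes G0S2, which marks the pair, so its higher and apart counts are partly built in. Besides G0S2, the droplet coat gene PLIN3 was apart, at 10.69 and 10.38 against 8.56 to 10.36 (median 9.23, difference 1.19 log2). ELOVL6, a fatty acid elongase, was at 7.20 and 3.75 against 7.88 to 9.96 (median 9.33, difference -3.63 log2, -1.90 without L540Cy). Of 17 sterol synthesis genes 1 was higher and 6 lower, beside the same shares of all genes. SQLE, the squalene epoxidase, was at 8.90 and 10.04 against 11.28 to 12.69 (median 11.62, difference -2.32 log2).

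MHC class II genes showed how the comparison depends on the line. Of 14 genes 9 were lower and 0 higher (median -0.68 log2), beside 15.1% and 11.4% of all genes, yet 0 were apart. Their median signal was 9.89 in L540 and 9.57 in L540Cy, above the 8.91 and 8.95 of L1236 and below the 11.21 to 11.65 of the other 3 lines. HLA-DRA, named after its values were seen, was at 12.13 and 11.91, against means of 10.79 in L1236, 13.09 in L428, 13.50 in KM-H2 and 13.96 in HDLM2. Against HDLM2 alone 11 of the 14 were lower and 0 higher (median -1.60 log2). These genes vary between alleles and have close relatives, so their probe sets may not read all lines alike.

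Of 24 cancer-testis genes, normally expressed in germ cells, 14 were lower and 0 higher (median -1.15 log2), beside 15.1% and 11.4% of all genes. The list's median signal was 7.88 and 7.89 on the KM-H2 arrays, against 4.01 to 4.78 on the 6 arrays of L428, L1236 and HDLM2, so the level of the comparison group rests largely on KM-H2. MAGEA4, named after its values were seen, was at 3.95 and 4.05 in the pair, at 12.34 in KM-H2 and at 3.43 to 3.72 in the other 3 lines. Against HDLM2 alone 1 of 24 was lower, with a median of 0.07 log2. MAGEB2, named after its values were seen, was at 3.78 and 3.98, beside HDLM2 at 3.93, against 10.69 to 12.18 in the B cell derived lines. PRAME was at 6.71 and 6.05 against 10.05 to 11.62 (median 10.85) on all 8 other arrays (-4.46 log2, limma adjusted p = 3.22e-07), so it was low in the pair alone among the Hodgkin arrays. Members of the MAGEA and SSX families are near copies whose probe sets may share signal.

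**Figure D4:**
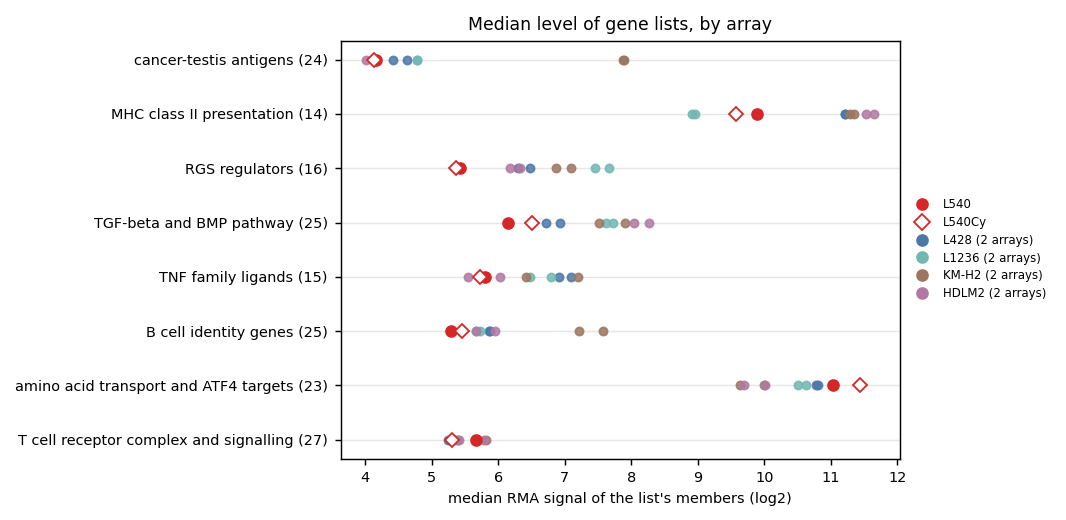
Median log2 RMA signal (x axis) over the members of 8 gene lists (rows, number of measured members in brackets), 1 symbol per Hodgkin array. For RGS regulators L540 (5.42) and L540Cy (5.37) lie below the other arrays, and for cancer-testis genes (4.16 and 4.13) they lie beside HDLM2.

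HDLM2 was then compared on its own, as the other line of T cell origin. The pair was higher in 1937 genes (9.82%) and lower in 2402 genes (12.2%) by limma at an adjusted p of 0.05, with 2 arrays on each side. HDLM2 also forms part of the 4-line mean and the pair is the same in both, so the calls are not independent. PLOD2, a lysyl hydroxylase of collagen, was at 11.54 and 11.83 in the pair and at 3.63 in HDLM2, with L1236 and KM-H2 in between at 9.34 and 8.67. KHSRP, an RNA-binding protein, was at 10.97 and 10.61, as in the B cell derived lines at 10.56 to 11.31, while HDLM2 was at 4.14. Without HDLM2 the difference of KHSRP was -0.06 log2, so its call rests on HDLM2.

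The largest differences below HDLM2 were in NIBAN1 (-8.36 log2), CD44 (-8.14), HDGFL3 (-7.94), GNG2 (-7.84), CCL17 (-7.74) and the receptor phosphatase PTPRK (-7.73). HDGFL3 was also near background in KM-H2 (4.53), and PTPRK in L1236 (3.69), and neither was apart. Against the 4 lines PTPRK had -4.15 log2, or -2.42 with the mean of its probe sets.

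Checkpoint molecules changed in both directions, with 5 of 22 higher and 6 lower, beside 11.4% and 15.1% of all genes. CD80, which binds CD28 and CTLA4, was at 5.75 and 5.72 against 8.29 to 10.56 (median 9.66, difference -3.84 log2, limma adjusted p = 4.02e-07). PVR, a ligand of TIGIT, had 1.44 log2 (2.56 with its most variable probe set), and CD200R1 -1.22 log2. HHLA2 was at 9.04 in L540 and 4.89 in L540Cy against 3.69 to 4.74, so its difference of 2.83 log2 was 0.76 without L540 and 4.91 without L540Cy. Its call ended without any 1 of the 8 other arrays except HDLM2 replicate 2 (limma adjusted p = 0.0518 to 0.0589), and it had 1.26 log2 with the mean of its probe sets.

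SLAM receptors and their adaptors had 3 higher and 1 lower of 11. For each list in this paragraph the shares over all genes were 11.4% higher and 15.1% lower. CD48, the ligand of CD244, was at 10.86 and 11.76 against 4.88 to 10.47 (median 7.26, difference 3.88 log2), so it was above even KM-H2, its highest comparison line. SH2D1A, the SAP adaptor of these receptors, was at 8.10 and 9.07 against 9.12 to 10.38 (median 9.51). Its difference was -1.06 log2, or -0.57 without L540, and its call ended with its most variable probe set (limma adjusted p = 0.0684). Of 15 MHC class I presentation genes 2 were higher and 2 lower, near the shares of all genes. HLA-E, the ligand of the NKG2A receptor, was at 13.38 and 13.15 against 11.39 to 12.22 (median 11.69, difference 1.52 log2, 0.83 with the mean of its probe sets). Of 11 plasma cell markers 3 were higher and 2 lower, and PRDM1 was the 1 apart member.

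Chromatin and stress genes each had a few apart members. Of 29 chromatin and DNA methylation modifiers 4 were higher and 6 lower. The deacetylase HDAC4 was at 8.67 and 8.08 against 6.37 to 7.94 (median 7.40, difference 1.18 log2), and the Polycomb reader CBX7 at 6.61 and 6.66 against 7.20 to 9.78 (median 7.42, difference -1.25 log2, -0.76 without HDLM2). In the unfolded protein response list 2 of 19 were higher and 3 lower, near the 11.4% and 15.1% of all genes, and SDF2L1, an endoplasmic reticulum chaperone component, was apart (-1.53 log2). ERN1, the stress sensor IRE1, was at 6.83 in L540 and 8.24 in L540Cy against 6.33 to 6.82 (0.98 log2, limma adjusted p = 0.0394, 0.0504 with the replicate number as a block). It had 1.68 log2 without L540 and 0.28 log2 without L540Cy, where its call ended. Its call also ended without each comparison array except HDLM2 replicate 2. Without any 1 of the 4 comparison lines it ended too (0.92 to 1.02 log2, limma adjusted p = 0.0557 to 0.0901). Of 28 glutathione and thioredoxin genes 5 were higher and 8 lower, and the transferase GSTM2 was apart (-1.78 log2, -0.96 without L1236). Of 22 annexins, galectins and S100 proteins 7 were higher and 3 lower, but against HDLM2 alone 1 was higher and 8 lower (median -0.50 log2). The list's median signal was 9.83 in L540 and 8.21 in L540Cy. It was 11.1 and 11.4 on the HDLM2 arrays and 7.22 to 8.97 on those of L428, L1236 and KM-H2, so the direction depends on the comparison line. S100A2 was at 6.57 and 7.84 against 4.95 to 6.15 (median 5.35, difference 1.75 log2, 1.12 without L540Cy), and ANXA7 had -1.01 log2.

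Developmental lists had apart genes in both directions. Of 28 HOX cluster genes 3 were higher and 9 lower (1 and 2 of them apart), and of 25 NOTCH pathway genes 4 and 8 (1 and 1 apart). Over all genes the shares were 11.4% higher and 15.1% lower. HOXB2 was at 6.97 and 7.24 against 4.53 to 5.29 (median 4.95, difference 2.18 log2), while HOXC4, at 6.94 and 7.03 against 7.27 to 9.09 (median 8.63), had -1.41 log2. HEY2, a NOTCH target, was at 7.59 and 7.81 against 5.86 to 6.63 (median 6.34, difference 1.47 log2). LFNG, which glycosylates NOTCH receptors, had -1.34 log2, or -0.81 with the mean of its probe sets. Of 36 neuronal genes 1 was higher and 6 lower, with 1 and 3 apart. SNAP25, a synaptic vesicle fusion protein, was at 4.77 and 4.66 against 6.39 to 10.36 (median 7.20, difference -3.12 log2, -1.63 with the mean of its probe sets), and SYT11, a synaptotagmin, at 5.44 and 5.25 against 8.02 to 9.34 (median 8.77).

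Markers of other cell types differed from list to list, beside 11.4% higher and 15.1% lower among all genes. Of 12 fibroblast and endothelial genes 0 passed by limma. Of 19 myeloid genes CSF3R was higher (0.31 log2), and CD14 (-0.87 log2, -0.09 without KM-H2) and ITGAM (-1.03 log2) were lower. Of 10 erythroid and platelet genes PF4 was higher (0.34 log2, limma adjusted p = 0.049, 0.0507 with the replicate number as a block). The calls of CSF3R and ITGAM ended without L428 replicate 1 (limma adjusted p = 0.0641 and 0.0585). The call of ITGAM also ended without L540 (-0.65 log2), KM-H2 (-0.58 log2) or HDLM2 (-0.55 log2) and with the mean of its probe sets (-0.39 log2), and it had -1.58 log2 without L428. In the order fibroblast and endothelial, myeloid, erythroid and platelet, the median signals of these lists were 5.66 in L540 and 5.55 in L540Cy against 5.36 to 5.62, 4.70 in L540 and 4.81 in L540Cy against 4.51 to 4.78, and 6.26 in L540 and 5.92 in L540Cy against 6.01 to 6.34. Of 8 mast cell and basophil genes HDC was higher (0.49 log2, limma adjusted p = 0.239 without L540Cy) and CMA1 and FCER1A were lower. CMA1 (-0.98 log2, 0.22 without L1236) was high in L1236 at 8.85, and FCER1A (-2.31 log2, 0.12 without L1236) was high in L1236 at 13.38. Of 12 epithelial genes 1 was higher and 2 lower. KRT7, a keratin, was at 5.25 and 7.44 against 9.09 to 11.40 (median 10.56, difference -4.07 log2, -1.05 with the mean of its probe sets), and MUC1 had 1.11 log2.

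**Figure D5:**
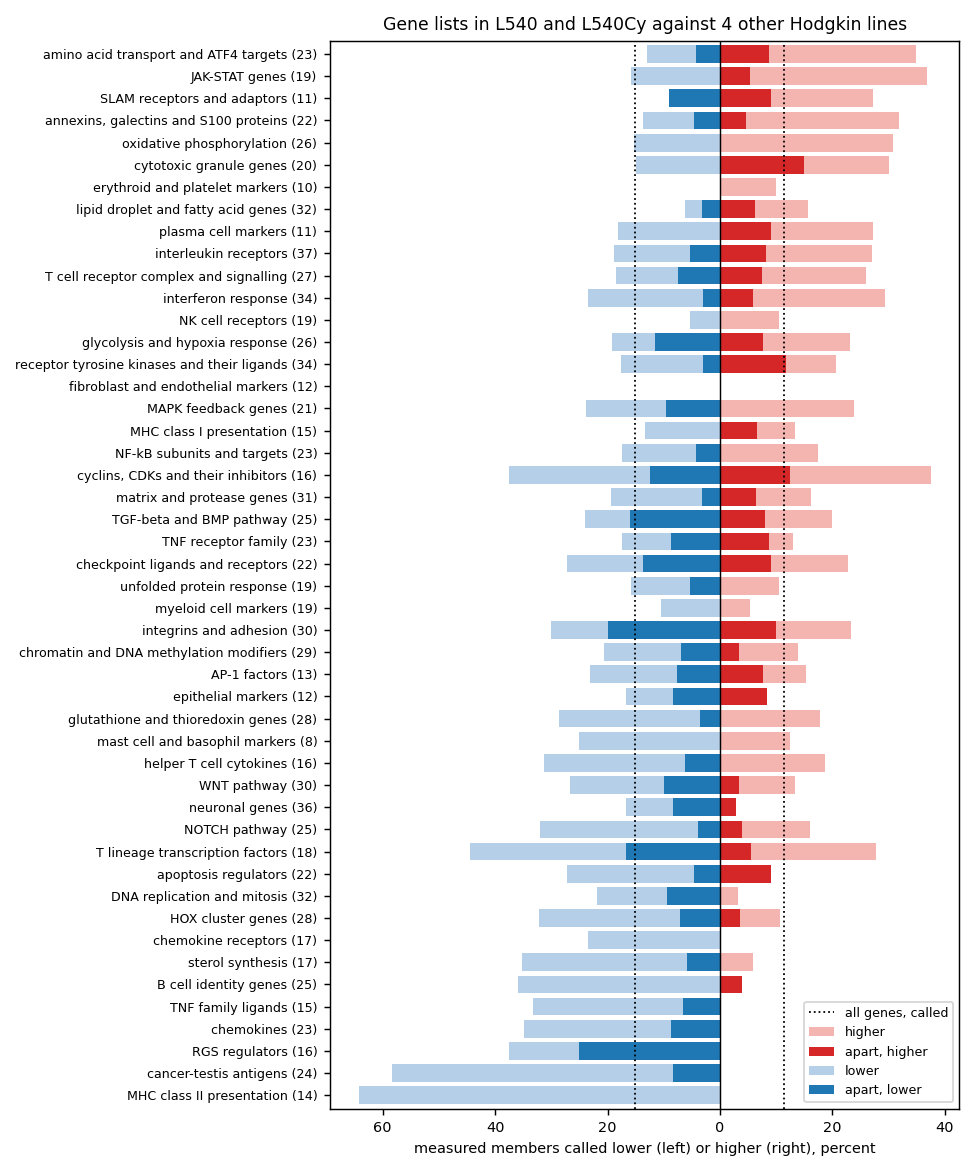
Share of the measured members of each of 48 gene lists that were higher (right) or lower (left) in the pair, in percent, with apart members in dark colour and the number of members in brackets. Dotted lines mark the 11.4% higher and 15.1% lower of all genes.

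Families were also formed from gene symbols, which gave 347 families of 8 or more measured genes without regard to function. Of these, 12 had 3 or more apart and higher genes and 19 had 3 or more apart and lower ones. They were ranked by the share of apart members, so the leading shares are high by selection. Among those with 3 or more apart and higher genes, the SERPINB family of intracellular protease inhibitors had the largest share, with 3 of 12 (25%) against 2.32% of all genes. SERPINB1, an inhibitor of neutrophil proteases, was at 12.45 and 12.76 against 9.22 to 11.06 (median 10.01, difference 2.45 log2). SERPINB8 was at 9.29 and 10.11 against 6.14 to 7.96 (median 7.20, difference 2.55 log2, 1.55 with the mean of its probe sets). SERPINB4 was higher mainly in L540, at 5.41 and 3.81 against 3.14 to 3.53, and its call ended without L540 (0.47 log2, limma adjusted p = 0.106). SERPINB9, the inhibitor of granzyme B, named after its values were seen, did not pass, at 6.38 and 6.51 against 3.82 to 10.50 (median 6.03). GALNT enzymes, which start mucin-type O-glycans, had 3 of 18 apart and higher: GALNT3 (3.99 log2, 2.13 with the mean of its probe sets), GALNT1 (1.55) and GALNT10 (1.28). GALNT1 had 0.98 log2 with its most variable probe set (limma adjusted p = 0.131).

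ANKRD, VPS, MAP and USP followed, beside 2.32% apart and higher and 3.47% apart and lower among all genes. Of 60 ankyrin repeat genes (ANKRD) 5 were apart and higher, and ANKRD18A, at 7.49 and 6.68 against 3.51 to 4.16, was also called with the line as the replicate (3.30 log2, 1.36 with the mean of its probe sets). Of 38 vacuolar sorting genes (VPS) 3 were apart and higher, led by VPS35L (2.39 log2, 1.26 with the mean of its probe sets). Of 51 MAP genes, a symbol family that mixes microtubule-associated proteins with kinases, 4 were apart and higher and 6 apart and lower. The higher ones include the antisense RNA MAP3K5-AS1 (1.87 log2), with 3.32 log2 without L540 and 0.42 without L540Cy. Its call ended with the replicate number as a block and without any 1 comparison array. MAP1B, a microtubule-associated protein of neurons, was at 10.34 and 9.78 against 3.92 to 7.99 (median 4.18, difference 5.0 log2), and MAP3K8, the kinase TPL2, at 4.79 and 6.69 against 6.83 to 9.37 (median 7.71, difference -2.30 log2, -1.34 without L540). Of 53 ubiquitin-specific proteases (USP) 3 were apart and higher, led by USP40 and USP53 with 1.76 and 1.76 log2.

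Among families with 3 or more apart and lower genes, RGS and TSPAN had the largest shares, with 4 of 22 each (18.2%) against 3.47% of all genes. The tetraspanin TSPAN13 was at 4.35 and 4.42 against 5.48 to 10.44 (median 8.66, difference -3.95 log2), and TSPAN2 at 3.87 and 3.48 against 5.75 to 8.08 (median 6.30, difference -2.95 log2, -1.31 with the mean of its probe sets). Intraflagellar transport genes (IFT) followed with 3 of 18, led by IFT74 at 3.88 and 4.09 against 5.81 to 8.95 (median 7.38, difference -3.39 log2, -2.23 with that mean). Over the 18 IFT genes 9 were lower and 1 was higher, with a median of -0.47 log2. Of 38 ubiquitin-conjugating and ligase genes (UBE) 5 were apart and lower, among them UBE2E2 (-2.73 log2, -1.79 without KM-H2). Of 33 CDC genes 12 were lower and 1 higher, and CDC7, a kinase that starts replication, was apart (-1.30 log2). Of 31 sorting nexins (SNX) 11 were lower and 2 higher. Among them SNX18 was at 3.76 and 3.21 against 6.21 to 9.60 (median 8.99, difference -5.10 log2, -2.56 with the mean of its probe sets). Among the 376 SLC transporters, 15 were apart and higher and 10 apart and lower. SLC16A7, a monocarboxylate transporter, was at 9.53 and 8.78 against 3.49 to 8.10 (median 5.53), and SLC27A6, a fatty acid transport protein, at 7.94 and 8.31 against 3.71 to 7.62 (median 3.93) with HDLM2 the next highest line.

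Both arrays lay above all 13 other arrays in 749 genes (3.8%) and below them in 581 (2.94%). This was so for 323 of the 457 apart and higher genes and 334 of the 685 lower ones. ALKAL2, G0S2, GZMB, NKG7 and OSMR were above all 13. CD44 was near background on the non-Hodgkin arrays as well, at 3.20 to 3.69, and IL13RA1 at 3.95 to 4.59.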

How the data were processed

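Total RNA of 9 lymphoid cell lines was hybridised to 15 Affymetrix U133 Plus 2.0 arrays, per the labels. The authors deposited log2 signals per probe set, made with RMA per the submitters' processing notes; the software version and the build were not given in the sources used here. Of 54675 probe sets, 62 controls were left out, and the 41091 that the platform annotation gives 1 gene symbol (several for 1801, none for 11721) were kept where their Entrez ID matched the RefSeq gene table; these 41037 gave 19735 genes, each represented by its brightest probe set over the 10 Hodgkin arrays. Line means were fitted with limma 3.58.1 (R 4.3.3, lmFit and eBayes, two-sided, Benjamini-Hochberg over all genes, threshold 0.05), with L540 and L540Cy as 1 line of origin and 5 residual degrees of freedom; the script was tested on simulated data.

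Named genes were the 4 markers and TNFRSF8, the 12 largest differences per direction among apart genes, up to 6 apart members per list and direction (up to 2 called members where none was apart, or the 2 largest differences where none was called), the 6 largest differences per direction shared with the HDLM2 contrast, and up to 5 apart members of the 8 leading families. XIST and Y-linked genes were left out. Genes named outside this rule are said to be so where they appear. The members and gene lists were chosen with earlier results of these data known. Same-numbered arrays deviated together in 6 of 6 line pairs (correlations 0.245 to 0.356). The replicate numbers were therefore taken as pairing the arrays in an alternative fit, the replicate block. The main fit had no such block, so its SEs and p-values leave this pairing out. L540 and L540Cy carry no number, and the replicate block placed them at the middle of the numbers. Alternatives covered probe sets, dim genes, scaling, the arrays and lines used, the replicate unit, the variance model, the test and the replicate block.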

Additional observations from a re-analysis of the deposited data

How the results depend on the processing

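Of 227 named genes 227 kept their call with repeated quantile normalization, 219 with averaged probe sets and 219 with the most variable probe set. With all 15 arrays 217 kept it, and with centred arrays 225. For called genes this also required the same direction, which was not checked for genes that were not called. Centring gave 3465 higher and 2472 lower genes, and 594 and 540 apart. With the line as the replicate 29 genes were higher and 6 lower (15 named genes kept their call), and with each line's arrays averaged first all 29 and 6 were apart. Testing against 1 log2 gave 319 higher and 600 lower, 200 and 364 apart, and 332 and 644 against HDLM2. Without HDLM2 710 genes were apart and higher.

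Leaving out 1 array gave 447 to 865 apart and higher genes and 684 to 1065 apart and lower ones; the counts were 865 and 1065 without L540 and 597 and 891 without L540Cy. With the replicate block 2455 genes were higher and 3154 lower, 454 and 686 apart, and 2130 and 2579 against HDLM2; 222 named genes kept their call. Placing L540 and L540Cy with number 1 or 2, chosen after seeing the data, kept 216 and 217.

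Directions turned for CDC23 (0.35 with the most variable probe set), CMA1 (0.22 without L1236), FCER1A (0.12 without L1236), KHSRP (-0.06 without HDLM2), PRF1 (0.29 without HDLM2) and MKI67 (-0.26 with averaged probe sets, -1.01 with the most variable one). Without L1236 and without HDLM2 the lines left out hold the levels on which these calls rest. The collagen gene COL1A1, which was not called, turned from 0.29 to -0.32 with averaged probe sets and to -0.84 with the most variable one. For CDC23, MKI67 and COL1A1 the cause was not tested. The pair has 2 arrays of 1 line of origin, and low signals near background cannot order genes.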

Other observations

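Genes were placed in order along their chromosomes (19683 placed), and runs of 4 or more neighbours that were called in the same direction and differed by at least 1 log2 were listed. On the higher side the longest run was ZCCHC2, PHLPP1, BCL2, KDSR and VPS4B, with a median difference of 1.6 log2, and 4 of these 5 genes were apart. ERMN, CYTIP, ACVR1C and ACVR1 had a median of 2.84 log2, with 3 apart, and GNAL, CHMP1B, MPPE1 and IMPA2 had 2.01 log2, with 4 apart. On the lower side SNAP25, MKKS, SLX4IP and JAG1 had a median of -2.34 log2, with 1 apart. SQLE, WASHC5, NSMCE2 and TRIB1 had -1.92 log2, with 4 apart, and ST20-AS1, BCL2A1, ZFAND6 and FAH had -1.43 log2, with 2 apart. Neighbouring pairs in which both genes were apart numbered 36 higher and 56 lower. The number to be had from the density of apart genes alone was not computed, so these counts and runs do not show clustering. All these genes were named after their values were seen.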
